A study of Homo sapiens with 32 samples.

Results

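Long non-coding RNA (lncRNA) genes that lie outside coding genes were taken as the autosomal GENCODE release 44 genes of the type lncRNA whose body, from the first to the last annotated base, shares no base with the body of a protein-coding gene. The rule kept 9932 of 18390 autosomal lncRNA genes, and the other 8458 overlapped a coding gene. Merged over both strands, the 9932 bodies covered 313.2 Mb, 11.4% of the 2756 Mb of known autosomal sequence. The rule used the annotation alone and no measured value.

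U-DNA-Seq maps uracil in genomic DNA. DNA fragments are captured through a uracil-DNA glycosylase made catalytically inactive and carrying a FLAG tag, sequenced beside their input DNA, and stretches in which the pull-down exceeds the input are kept as uracil-enriched regions. The study compared non-treated cells with cells given drugs that disturb thymidylate synthesis, to learn where uracil lies in each state. HCT116, a human colon carcinoma line that lacks functional mismatch repair (MMR), gave 6 non-treated libraries: 2 of wild type cells (WT), 2 of cells that express UGI, a protein inhibitor of the uracil-DNA glycosylase UNG (NT_UGI), and 2 of an MMR proficient HCT116 derivative with UGI (NT_UGI_MMR). It also gave 8 drug-treated libraries, all with UGI: 2 each of MMR deficient cells (5FdUR_UGI, RTX_UGI) and MMR proficient cells (5FdUR_UGI_MMR, RTX_UGI_MMR) after 48 h with either 5FdUR, a fluorinated deoxyuridine given at 20 µM, or the antifolate raltitrexed (RTX) at 100 nM, both of which lower thymidylate synthase activity. Per the paper, 5FdUR also leads to fluorouracil in DNA, and the assay detects fluorouracil as well as uracil. UGI was introduced by retroviral transduction in the stable lines, and no UGI-free cells were drug-treated, so a drug effect cannot be told apart from one that needs UGI. A single library came from non-treated K562 cells, a human leukaemia line, and has no replicate.

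lncRNA genes outside coding genes are transcribed by RNA polymerase II and mostly spliced, but carry no recognised reading frame. They include nuclear scaffolds, transcripts that host small nucleolar RNAs (snoRNAs) or microRNAs (miRNAs) in their introns or exons, transcripts that start back to back with a coding gene, and many transcripts of gene deserts without a known role. Gene-poor, AT-rich sequence is known to replicate late in S phase and to be packed as heterochromatin, while GC-rich, gene-dense sequence replicates early. A covered base here means a base inside a uracil-enriched region, so every value below describes the DNA of a lncRNA gene and not its RNA.

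Of the 9932 genes, 2071 carried a LINC symbol (long intergenic non-coding RNA), 348 a divergent transcript symbol ending in DT, 65 an antisense symbol, 54 a miRNA host symbol, 11 a snoRNA host symbol and 491 another symbol. The remaining 6892 were known by an Ensembl identifier alone. The median body was 7365.5 bp long, the shortest 87 bp and the longest 1232815 bp, and the 567 longest genes (5.71%) held 50% of the summed length. The median GC content was 42.9% and the median distance to a coding gene was 36.5 kb. Altogether 2809 genes shared bases with another member, so that the 9932 genes formed 8234 separate loci and were not independent of each other. A covered base was present in at least 1 HCT116 library for 9188 genes, and 744 had none in any of the 14.

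Promoter windows of genes among those with the largest differences between drug-treated and non-treated libraries are shown so that their sequence can be set beside the coverage of these windows. A gene was passed over when its annotated start lay in no RefSeq window of the same symbol. LINC02263, whose loss exceeded those of LINC02070 and LINC02619, is therefore not shown. Each window is 300 bases long, from 250 bases before to 50 bases after the RefSeq start (GRCh38.p14), written 5′ to 3′ on the strand of the gene, and capitals mark CG dinucleotides. The first 3 belong to genes whose covered share was higher in drug-treated libraries.

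LINC02037, chr3:194247398-194247697, plus strand: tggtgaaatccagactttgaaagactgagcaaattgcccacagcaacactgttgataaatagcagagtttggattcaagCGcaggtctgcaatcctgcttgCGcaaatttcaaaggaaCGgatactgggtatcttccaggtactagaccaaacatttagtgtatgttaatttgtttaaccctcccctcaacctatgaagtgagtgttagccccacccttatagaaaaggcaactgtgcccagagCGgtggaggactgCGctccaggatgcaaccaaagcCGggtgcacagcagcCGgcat

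LINC00928, chr15:89523985-89524284, minus strand: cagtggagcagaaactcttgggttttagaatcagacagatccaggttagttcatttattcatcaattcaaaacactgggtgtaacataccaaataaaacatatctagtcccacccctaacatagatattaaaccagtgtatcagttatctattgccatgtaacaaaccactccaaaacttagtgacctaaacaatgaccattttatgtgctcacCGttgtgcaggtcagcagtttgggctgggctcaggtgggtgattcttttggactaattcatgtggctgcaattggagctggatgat

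MIR9-3HG, chr15:89361329-89361628, plus strand: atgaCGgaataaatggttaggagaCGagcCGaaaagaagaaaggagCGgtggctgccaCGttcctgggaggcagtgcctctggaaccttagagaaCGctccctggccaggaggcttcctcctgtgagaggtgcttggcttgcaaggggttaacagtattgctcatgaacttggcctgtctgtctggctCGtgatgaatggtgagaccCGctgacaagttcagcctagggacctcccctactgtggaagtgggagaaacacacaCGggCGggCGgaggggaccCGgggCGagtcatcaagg

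The other 3 belong to genes whose covered share was lower in drug-treated libraries.

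LINC01676, chr1:105618886-105619185, minus strand: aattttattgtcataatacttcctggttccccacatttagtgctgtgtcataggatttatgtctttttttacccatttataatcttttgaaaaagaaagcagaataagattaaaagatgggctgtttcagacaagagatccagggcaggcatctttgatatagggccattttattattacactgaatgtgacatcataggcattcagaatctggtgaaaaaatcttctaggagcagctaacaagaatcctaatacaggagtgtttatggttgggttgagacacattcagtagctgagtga

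LINC02070, chr3:86481693-86481992, plus strand: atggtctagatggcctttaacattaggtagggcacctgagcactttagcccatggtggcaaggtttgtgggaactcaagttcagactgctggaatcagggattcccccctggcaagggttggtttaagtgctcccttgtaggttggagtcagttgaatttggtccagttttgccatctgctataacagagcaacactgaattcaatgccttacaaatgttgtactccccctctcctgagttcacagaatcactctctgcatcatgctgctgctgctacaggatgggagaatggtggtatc

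LINC02619, chr4:58988105-58988404, minus strand: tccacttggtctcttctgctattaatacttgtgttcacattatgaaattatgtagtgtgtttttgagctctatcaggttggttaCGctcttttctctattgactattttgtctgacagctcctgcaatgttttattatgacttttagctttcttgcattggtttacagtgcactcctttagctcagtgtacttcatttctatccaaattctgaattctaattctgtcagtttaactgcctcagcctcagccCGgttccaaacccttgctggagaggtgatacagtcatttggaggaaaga

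These windows held 7, 1 and 13 CG dinucleotides in LINC02037, LINC00928 and MIR9-3HG, and 0, 0 and 2 in LINC01676, LINC02070 and LINC02619. Their GC content was 48%, 40.7% and 57.7% in the first 3 and 36%, 48.3% and 39% in the other 3, so the sets overlapped in both measures. The MIR9-3HG window lay wholly inside a region in 6 of 8 drug-treated libraries, the LINC02037 and LINC00928 windows in 7 of 8, and none of the 3 held a covered base in any of the 6 non-treated libraries. The LINC01676 window lay wholly inside a region in all 6 non-treated libraries and in K562 and held no covered base in any drug-treated library. The windows of LINC02070 and LINC02619 held no covered base in any drug-treated library either, and in the non-treated libraries the first was never covered and the second was wholly covered in 1 of 6, so the regions over these bodies lay away from their starts. The deposited signal had been smoothed over 5000 bp, so neighbouring bases of a 300-base window were not measured separately. The genes were chosen for their difference in covered share, so the coverage of their windows is given as a description.

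The covered share of the member bodies, the percentage of their known bases inside regions, was 15.0% ± 0.186 (SD, n = 6) in non-treated libraries against 11.5% ± 0.145 for the autosomal genome. The regions of the drug-treated libraries took up a larger part of the genome, from 17.6% to 19.7%, and the authors had tuned the log2 threshold for each library. Shares were therefore divided by the genome share of the same library, and a fold of 1 means that a set was covered like the autosomes as a whole. On this scale the lncRNA gene bodies stood at 1.31 ± 0.0144 (SD, n = 6) in non-treated libraries, from 1.29 in WT replicate 2 to 1.33 in NT_UGI replicate 1. In the drug-treated libraries the fold was 0.739 and 0.886 in 5FdUR_UGI, 1.05 and 1.19 in 5FdUR_UGI_MMR, 0.503 and 0.511 in RTX_UGI and 0.542 and 0.496 in RTX_UGI_MMR. Every drug-treated library lay below every non-treated library. The mean log2 fold fell by 0.91 (exact permutation test of 8 against 6 libraries, two-sided, p = 0.00333). This test treats the 14 libraries as separate units, although they are 2 replicates of each of 7 conditions. The authors' merged files, with 1 value a condition, gave a fall of 0.95 (exact permutation test, p = 0.0571, where 0.0286 was the smallest possible). The same limit holds for the other tests over these libraries. The K562 library, at 1.31, lay within the range of the non-treated HCT116 libraries.

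**Figure D1:**
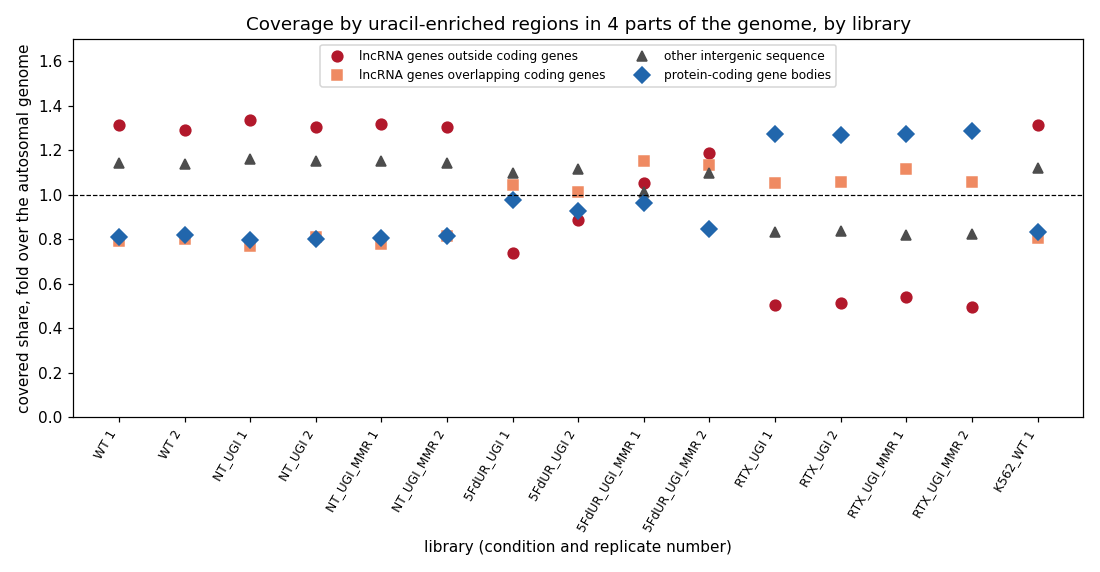
Covered share divided by that of the autosomal genome (vertical axis) in each of 15 libraries (horizontal axis) for lncRNA genes outside coding genes, lncRNA genes overlapping coding genes, other intergenic sequence and protein-coding gene bodies; the dashed line marks a fold of 1. The red circles stand at 1.29 to 1.33 in the 6 non-treated HCT116 libraries, spread from 0.739 to 1.19 after 5FdUR and drop to 0.496 to 0.542 after RTX.

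The plot of folds by library also shows the other parts of the genome. The 8458 lncRNA genes that overlap coding genes went the other way, from 0.794 ± 0.0163 (SD, n = 6) to 1.08 ± 0.0494 (SD, n = 8), and coding gene bodies went from 0.807 ± 0.00887 to 1.10 ± 0.190. The ratio of the lncRNA genes outside coding genes to those overlapping them was 1.65 ± 0.0507 in non-treated libraries and 0.682 ± 0.236 in drug-treated ones, a difference of -1.35 in log2 (exact permutation test, adjusted p = 0.00373 over 28 tests of ratios). Of the 3 gene classes, the lncRNA genes outside coding genes were the one above the genome in non-treated libraries and below it on average in drug-treated ones. This pattern was not particular to them. Other intergenic sequence, outside any coding or lncRNA gene, went from 1.15 ± 0.00757 to 0.954 ± 0.138. Its mean fold was 1.08 in the 5FdUR libraries and 0.828 in the RTX libraries.

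The direction of the difference turned with the length of the gene. Bodies under 2 kb had a fold of 0.283 ± 0.0114 in non-treated and 1.64 ± 0.386 in drug-treated libraries, and bodies of 2 to 10 kb 0.418 ± 0.0175 and 1.64 ± 0.274 (n = 6 and 8 for each pair here and below, SD). Bodies of 10 to 50 kb still rose, from 0.770 ± 0.00760 to 1.26 ± 0.189. Bodies of 50 to 200 kb fell from 1.29 ± 0.0160 to 0.759 ± 0.314, and the 370 bodies of 200 kb or more fell from 1.72 ± 0.0243 to 0.335 ± 0.339. Each of the 5 differences passed the exact permutation test, with adjusted p between 0.000725 and 0.00596 over 37 sets of sequence. Since the 370 longest genes alone held 133.2 Mb, summed bases and counts of genes gave opposite answers: averaged over genes instead of bases, the log2 fold was higher by 1.20 in drug-treated libraries (exact permutation test, p = 0.000333, the smallest possible).

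**Figure D2:**
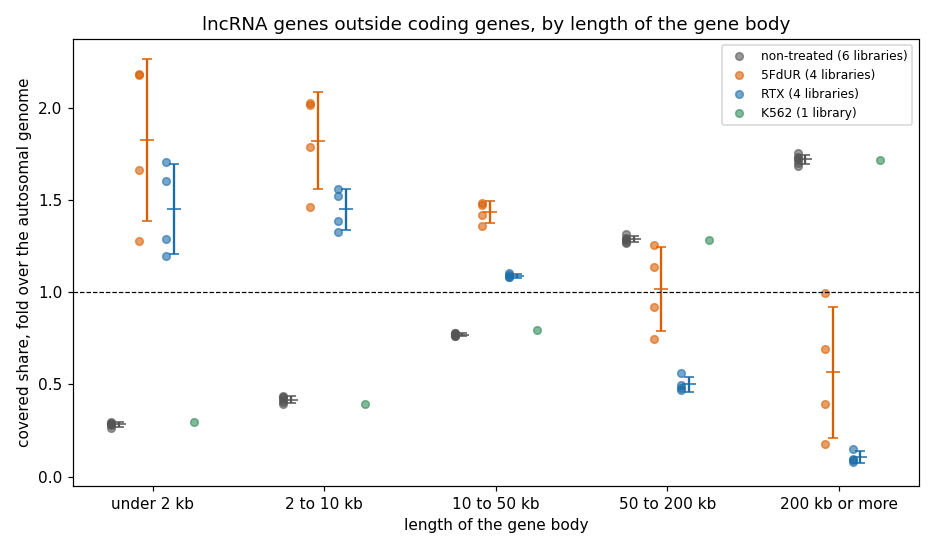
Covered share of lncRNA gene bodies outside coding genes as a fold over the autosomal genome (vertical axis) in 5 classes of body length (horizontal axis); points are libraries, bars the mean ± SD of the non-treated, 5FdUR and RTX libraries, and the dashed line a fold of 1. Grey points climb from 0.283 for the shortest to 1.72 for the longest class, while the RTX points descend from 1.45 to 0.106.

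Length went with base composition and position, so their contributions cannot be told apart from length alone. The median GC content fell from 47.0% in bodies under 2 kb to 37.5% in bodies of 200 kb or more, and the median distance to a coding gene grew from 12.6 to 122.3 kb. Within classes of GC content the direction no longer turned with length. In bodies under 38% GC the fold fell from 2.14 to 0.490 for genes under 10 kb, from 2.52 to 0.350 for genes of 10 to 50 kb, and from 2.54 to 0.202 for genes of 50 kb or more. In bodies of 46% GC or more it rose from 0.00874 to 2.21, from 0.0165 to 2.33 and from 0.0638 to 2.01 in the same length classes. All 6 of these differences passed the exact permutation test at adjusted p = 0.000437 over 21 classes. Between 38 and 46% GC, bodies under 10 kb rose from 0.170 to 1.46 and bodies of 10 to 50 kb from 0.269 to 1.29 at the same adjusted p, and bodies of 50 kb or more stood at 0.471 and 0.780 (adjusted p = 0.146, exact permutation test). In these last genes 5FdUR libraries averaged 1.10 and RTX libraries 0.456.

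Over all lengths, genes under 38% GC stood at 2.52 ± 0.0607 in non-treated and 0.225 ± 0.234 in drug-treated libraries, and genes of 50% GC or more at 0.0242 ± 0.00378 and 2.47 ± 0.735. Genes of 38 to 42% GC had 0.550 ± 0.0385 and 0.672 ± 0.362 (adjusted p = 0.668, exact permutation test). The member bodies were also set against autosomal 5 kb windows of the same GC percentage, which gave observed shares of 1.02 to 1.04 times the share of such windows in the 6 non-treated libraries. The ratio was 0.887 and 1.06 in 5FdUR_UGI, 1.21 and 1.24 in 5FdUR_UGI_MMR, and 0.564 to 0.598 in the 4 RTX libraries. On this scale the drug-treated libraries were lower by 0.38 in log2 and no longer passed the test (exact permutation test, p = 0.104).

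**Figure D3:**
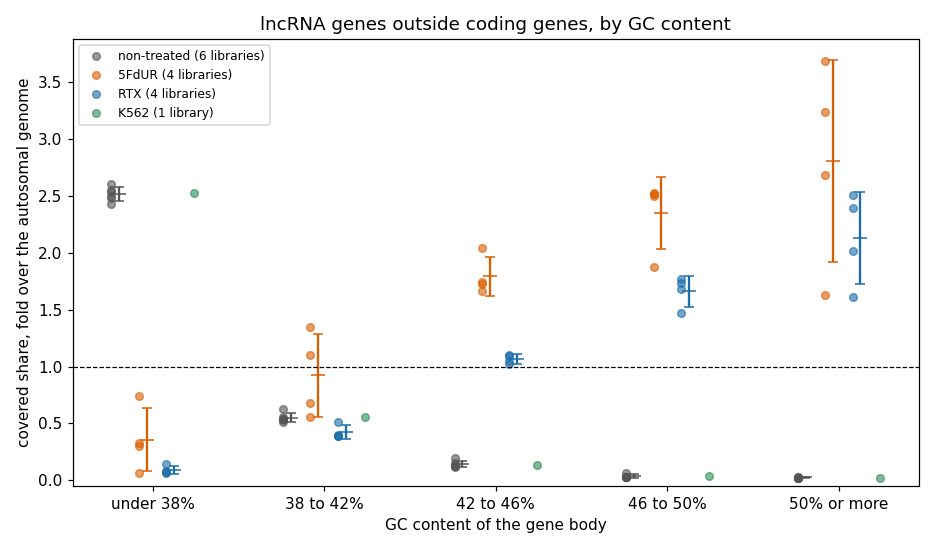
Covered share of lncRNA gene bodies outside coding genes as a fold over the autosomal genome (vertical axis) in 5 classes of GC content of the body (horizontal axis); points are libraries, bars the mean ± SD of each group, and the dashed line a fold of 1. Non-treated and K562 libraries are high only in the class under 38% (2.52), and drug-treated libraries climb from 0.225 to 2.47 across the classes.

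The fold also differed with distance to coding genes. The 3019 genes less than 10 kb from a coding gene rose from a fold of 0.707 ± 0.0231 to 1.27 ± 0.133 (adjusted p = 0.000725, exact permutation test over 37 sets). The 3774 genes at 10 to 100 kb had 0.814 ± 0.0146 and 1.02 ± 0.302 (adjusted p = 0.171, exact permutation test), with 5FdUR libraries at 1.29 ± 0.164 (SD, n = 4) and RTX libraries at 0.759 ± 0.0286. The 2357 genes at 100 to 500 kb fell from 1.58 ± 0.0177 to 0.383 ± 0.396 (adjusted p = 0.0044, exact permutation test). The 782 genes at 500 kb or more, the lncRNA genes of gene deserts, fell from 2.82 ± 0.108 to 0.138 ± 0.194 (adjusted p = 0.00224, exact permutation test), and to 0.0101 ± 0.0111 in the 4 RTX libraries. The log2 ratio of the nearest to the farthest class was higher by 7.36 in drug-treated libraries (exact permutation test, p = 0.000999), and by 4.52 when each class was set against windows of the same GC content (p = 0.00333).

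**Figure D4:**
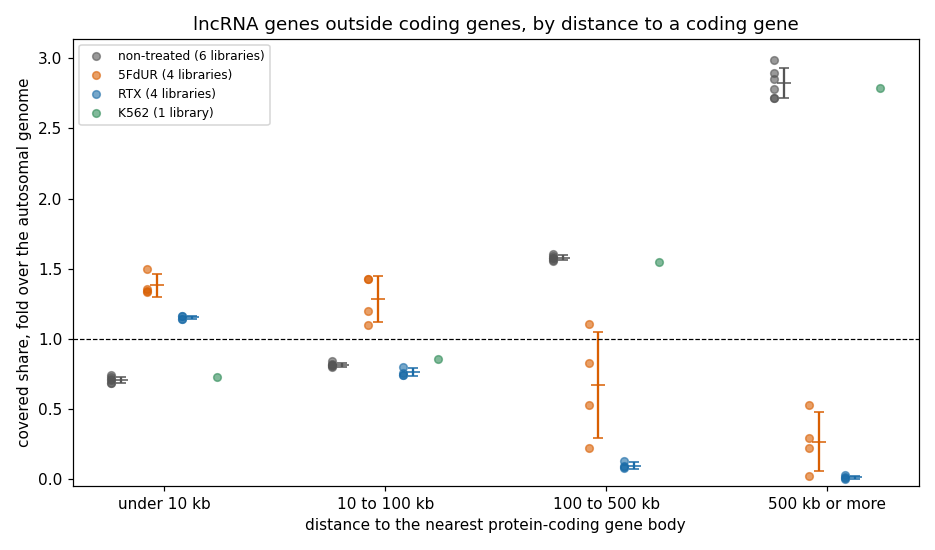
Covered share of lncRNA gene bodies outside coding genes as a fold over the autosomal genome (vertical axis) in 4 classes of distance to the nearest protein-coding gene body (horizontal axis); points are libraries, bars the mean ± SD of each group, and the dashed line a fold of 1. RTX points lie above the grey points under 10 kb, below them on average but with overlap at 10 to 100 kb (0.759 against 0.814), and below them beyond. 5FdUR points on average lie above the grey points up to 100 kb and below them beyond. At 500 kb or more the grey points lie at 2.71 to 2.99 and the RTX points at 0.00160 to 0.0257.

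Symbol classes differed in the same way. Divergent transcripts, which start beside a coding gene at a median distance of 146.5 bp, rose from 0.699 ± 0.0288 to 1.20 ± 0.114, while LINC genes fell from 1.37 ± 0.0199 to 0.693 ± 0.343 (adjusted p = 0.000725 and 0.00452, exact permutation tests). Their log2 ratio was higher by 1.9 in drug-treated libraries (exact permutation test, p = 0.000666), and by 0.63 relative to windows of the same GC content (p = 0.0463). The ratio of divergent transcripts to LINC genes was 0.472 to 0.539 in non-treated libraries and 2.47 to 2.94 after RTX, but only 0.912 and 1.03 in 5FdUR_UGI_MMR and 1.5 and 2.15 in 5FdUR_UGI. Antisense genes rose from 0.354 ± 0.0645 to 1.55 ± 0.206, and miRNA host genes, summed over bases, fell from 1.29 ± 0.0200 to 0.577 ± 0.370.

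Starts and exons behaved like short genes. The 300-base promoter windows of the members had a fold of 0.478 ± 0.0153 in non-treated and 1.39 ± 0.345 in drug-treated libraries (adjusted p = 0.000416, exact permutation test over 10 sets of windows). The windows of divergent transcripts held a median of 31 CG dinucleotides and those of LINC genes 4, against 18 for coding genes and 5 for all genes. At least 10 CG dinucleotides, an arbitrary limit, were present in 27% of member windows, 92.8% of divergent transcript windows, 20.4% of LINC windows and 35.9% of the windows of all 59570 autosomal genes with a complete window. The windows of divergent transcripts rose from 0.0123 ± 0.0167 to 1.51 ± 0.666 and those of LINC genes from 0.601 ± 0.0106 to 1.32 ± 0.415, so the starts of LINC genes rose while their bodies fell (adjusted p = 0.00222 for the starts, exact permutation test). Exons of the members, 19.3 Mb, rose from 0.622 ± 0.0218 to 1.32 ± 0.263, and introns fell from 1.36 ± 0.0148 to 0.701 ± 0.279. The ratio of exons to introns was 0.459 ± 0.0155 in non-treated and 2.02 ± 0.436 in drug-treated libraries (adjusted p = 0.00233, exact permutation test over 28 ratios).

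The members were then compared with the 1088 Mb of intergenic sequence outside any coding or lncRNA gene. In non-treated libraries they were covered 1.13 to 1.15 times as much as other intergenic sequence (mean log2 ratio 0.19, exact sign-flip test, p = 0.03125, the smallest possible with 6 libraries). After RTX the ratio was 0.603 to 0.662, and after 5FdUR it was 0.675 and 0.796 in MMR deficient and 1.04 and 1.08 in MMR proficient cells. The mean log2 ratio over the 8 drug-treated libraries was -0.44 (exact sign-flip test, p = 0.03125), and it was lower than in non-treated libraries by -0.63 (exact permutation test, p = 0.00133). Leaving out any 1 of the 4 RTX libraries or of the 2 5FdUR_UGI libraries raised the sign-flip p to 0.0625. Relative to windows of the same GC content the mean log2 ratio was 0.03 in non-treated libraries (exact sign-flip test, p = 0.03125) and the difference between the groups -0.37 (exact permutation test, p = 0.0300). Averaged over genes the ratio without drug and the difference had the opposite sign, -0.94 and 1.48, and over exons they were -0.88 and 1.34.

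Compared base by base at the same distance from coding genes, the picture changed. Closer than 10 kb, lncRNA gene bodies were covered 0.662 ± 0.0559 times as much as other intergenic sequence in non-treated libraries (adjusted p = 0.0461, exact sign-flip test over 28 tests) and 0.995 ± 0.0654 times in drug-treated ones. At 10 to 100 kb the ratios were 0.789 ± 0.0141 and 0.955 ± 0.0583, and at 100 to 500 kb 0.899 ± 0.00480 and 1.15 ± 0.0857. In each of these 3 zones the ratio was higher in drug-treated libraries (adjusted p = 0.00233, exact permutation test). At 500 kb or more it was 1.23 ± 0.00925 and 1.29 ± 0.270 (adjusted p = 0.802, exact permutation test). Over all zones together the members stood below other intergenic sequence after drugs. Zone by zone the lowest mean ratio after drugs was 0.955 at 10 to 100 kb (adjusted p = 0.114 against a ratio of 1, exact sign-flip test). At 100 to 500 kb the members stood above it (adjusted p = 0.0273, exact sign-flip test). These means pool drugs that differed. Closer than 10 kb the ratio was 0.902 to 0.964 after RTX and 1.03 to 1.08 after 5FdUR (adjusted p = 0.0461 between the drugs, exact permutation test). At 10 to 100 kb it was 0.917 to 0.935 after RTX and 0.914 to 1.08 after 5FdUR. After RTX every library thus stayed below 1 in both of these zones. Blacklisted stretches were removed before the regions were made, and how far they lie in other intergenic sequence was not tested.

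Tested gene by gene on the fold over the genome, 1819 members (18.3%) were higher and 1519 (15.3%) lower in drug-treated libraries at an adjusted p under 0.05 (exact permutation test over the 14 libraries, Benjamini-Hochberg adjustment over all 52761 autosomal genes with a covered base). Over all 52761 genes tested, 21.2% were higher and 9.72% lower. Of the 9188 members tested, 19.8% were higher and 16.5% lower, so lower calls were more frequent and higher calls slightly less frequent among members than over all genes, a difference that was not tested. With the groups required not to overlap at all, 755 members were higher and 1041 lower. These were 8.22% and 11.3% of the members tested, against 8.16% and 5.71% of all genes tested, so the higher share was near that of all genes. The count of higher members dropped to between 1109 and 1120 when any 1 of the 6 non-treated libraries was left out and to 1212 without 5FdUR_UGI replicate 1. It was 532 with regions of at least 5 kb and 124 with only regions of a log2 value of at least 0.34, which is above the threshold of every library. The count of lower members was 774 and 1469 under the same settings, so with the common log2 value the higher calls became few and the number of lower calls was close to that without it. The counts under these settings were not set against shares over all genes.

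By distance, 709 of 3019 genes under 10 kb were higher and 128 lower, and at 10 to 100 kb 1009 of 3774 were higher and 296 lower. Of those tested these were 25.2% and 4.56%, and 28.8% and 8.44%, against 21.2% and 9.72% of all genes tested. At 100 to 500 kb 4.29% of 2357 were higher and 660 genes lower. Of the 782 desert genes 435 (55.6%) were lower and 0 higher. By GC content, 1245 of 2130 genes under 38% were lower and 34 higher, whereas of 1930 genes at 50% or more 521 were higher and 2 lower. Of the genes tested under 38% GC, 62.1% of coding genes and 61.3% of members were lower. Higher calls were less frequent among members than among coding genes in the other classes, with 13.6% against 19% at 38 to 42%, 27.5% against 40.4% at 42 to 46%, 33.02% against 45.6% at 46 to 50% and 29.6% against 37.3% at 50% or more, a difference that was not tested. Members of 50% GC or more had a median body of 2216.5 bp, against 11027.5 bp in coding genes. Their mean covered shares after drugs were 39.9% and 39.8%. Of the tested bodies under 2 kb, 15.6% of members and 11.9% of coding genes were higher. In each longer class fewer members than coding genes were higher, with 23.8% against 35.8% at 10 to 50 kb.

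The 8 genes with the largest gain in mean covered share held at most 2.61% in any non-treated library and 36.7% to 100% in drug-treated ones, and the plot of genes by library shows them in its top block. They were LINC02037, LINC00928, MIR9-3HG, LINC01944, LINC03015, LINC00690, TBC1D3P5 and LINC02757, all with bodies of at least 10 kb. LINC02037 (chr3:194247617-194260720, 79.0 kb from CPN2) was covered by 0% in each of the 6 non-treated libraries and by 100%, 100%, 100% and 49.6% in the 5FdUR libraries and 96.2%, 99.2%, 91.6% and 100% in the RTX libraries. MIR9-3HG (chr15:89361579-89424983, 63.4 kb), the host gene of 1 of the copies of miR-9, a miRNA of neural development, was at 0% in all non-treated libraries and at 52.1% at the lowest, 96.6% at the median and 100% at the highest after drugs. LINC00928 (chr15:89504909-89524049), a close neighbour of MIR9-3HG by these coordinates, was at 2.61% in WT replicate 2, at 0% in the other non-treated libraries, and between 68.1% and 100% after drugs. The values of these neighbours need not be independent. In 6 of these 8 genes the lowest drug-treated library was 5FdUR_UGI_MMR replicate 2, at 36.7% to 52.1%. No non-treated library of any of the 8 reached the lowest drug-treated one, and each had an adjusted p of 0.00447 (exact permutation test), the smallest reached in the data. The 8 were chosen among called genes for the size of this difference. Their separation and adjusted p follow largely from that choice and are given as a description. TBC1D3P5 carries a pseudogene symbol of a duplicated gene family, so reads may be shared with its copies and its share is uncertain.

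The 8 genes with the largest loss were LINC01676, LINC02263, LINC02070, LINC02619, LINC02064, LINC01608, LINC02494 and LINC00317. They were also chosen among called genes for this difference, which is given as a description. All had 31.8% to 33.8% GC and lay 180.0 to 1829 kb from the nearest coding gene. LINC01676 (chr1:105587575-105618991, 1438 kb from PRMT6) was covered by 80.6%, 79.0%, 86.9%, 68.2%, 75.8% and 82.5% in the non-treated libraries and by 0% in all 8 drug-treated libraries. LINC02070 (chr3:86481943-86496996) was covered by 48.5% to 89.7% in non-treated libraries and by 0% in all drug-treated ones. LINC02619 (chr4:58939288-58988182) and LINC02494, both in the desert beyond IGFBP7, had means of 73.3% ± 6.83 and 71.3% ± 9.97 (SD, n = 6) and were at 0% in 7 of 8 drug-treated libraries each, with 0.409% and 20.3% in 5FdUR_UGI_MMR replicate 2. LINC02263 kept 10.4% in 5FdUR_UGI replicate 2 and 6.34% in 5FdUR_UGI_MMR replicate 2, against 66.0% to 86.8% without drug. In K562 the 8 genes stood between 50.5% and 79.1%.

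The 5 longest members were LINC02055, ENSG00000271860, CCDC26, LINC01320 and ENSG00000228566, each of more than 1 Mb. ENSG00000271860 (chr6:97283303-98400869, 85 bp from MMS22L) was covered by 32.4% to 34.2% in non-treated libraries and by 0.0716% to 6.85% in drug-treated ones (adjusted p = 0.00447, exact permutation test). LINC02055, at 17.4% to 20.2%, and LINC01320, at 12.02% to 13.1%, were at 0% in all 4 RTX libraries and at most 2.77% and 6.99% after 5FdUR, with the same adjusted p. CCDC26 did not pass the test (adjusted p = 0.196, exact permutation test), having 9.18% to 12.9% in non-treated libraries, 0% to 1.48% after RTX, 0.181% and 3.29% in 5FdUR_UGI and 17.6% and 36.6% in 5FdUR_UGI_MMR. ENSG00000228566 had nearly the same share in both groups, 13.1% ± 1.02 and 12.9% ± 4.57, and was called lower (adjusted p = 0.0191, exact permutation test) only on the fold, since the regions of drug-treated libraries took up more of the genome.

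The lncRNA lists were described by counts and by the median change in mean covered share, drug-treated minus non-treated, which was 14.04 percentage points over all members and 20.5 over all autosomal genes. The medians were 39.9 points for nuclear or abundant, 37.0 for imprinted, 28.6 for snoRNA host, 11.4 for miRNA host, 38.03 for p53-linked, 8.86 for colorectal cancer and 1.98 for neural lncRNAs. Of 6 nuclear or abundant lncRNAs, CYTOR and MIAT were higher and none was lower. Over all genes tested, 21.2% were higher and 9.72% lower, and the counts of these short lists were not tested against such shares. MALAT1 (chr11:65497640-65508073), a transcript of nuclear speckles, was at 0% in all non-treated and all 5FdUR libraries and at 58.1%, 76.3%, 0% and 6.71% in RTX libraries, which did not pass the test (adjusted p = 0.43, exact permutation test). NEAT1 (chr11:65422774-65445540), the scaffold of paraspeckles, reached at most 4.39% without drug, 23.3%, 0%, 0% and 0% after 5FdUR and 98.7%, 100%, 29.4% and 61.1% after RTX (adjusted p = 0.121, exact permutation test). MIAT (chr22:26646411-26676475) was at 0% in all 6 non-treated libraries and between 19.3% and 100% after drugs (adjusted p = 0.0071, exact permutation test). CYTOR, which is 182.0 kb long, reached 0.934% at most without drug and between 2.20% and 25.2% after drugs. The 4 genes held little or no covered sequence in non-treated cells and differed in the drug-treated libraries in which they were covered.

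The imprinted lncRNAs outside coding genes were H19, MEG3 and MEG9, and none of the 3 was called. H19 (chr11:1995166-2004552) was at 0% in every library but 5FdUR_UGI replicate 2, at 17.4%. MEG3 (chr14:100779410-100861031), a maternally expressed gene, was at 0% in all non-treated libraries, at 80.0%, 96.6%, 80.0% and 73.7% after 5FdUR and at 0% to 2.08% after RTX (adjusted p = 0.0545, exact permutation test of drug-treated against non-treated). MEG9, downstream of it, was at 16.0% to 100% after 5FdUR and at 0% after RTX. Every 5FdUR library was above every RTX library in MEG3 and MEG9.

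Of 11 snoRNA host genes 10 were tested, 2 were higher and 1 lower, shares of 20% and 10% that lie near the 21.2% and 9.72% over all genes. SNHG17 (chr20:38419638-38435409) was at 0% without drug, at 88.0% to 100% after RTX and at 98.7%, 22.8%, 5.07% and 1.27% after 5FdUR (adjusted p = 0.0191, exact permutation test). SNHG26 was at 0% without drug and at 0% to 100% after drugs (adjusted p = 0.0275, exact permutation test). SNHG1, which lies 50 bp from SLC3A2, was at 0% without drug, at 100% in RTX_UGI replicate 2 and at no more than 17% in the other drug-treated libraries. SNHG27, 1358 kb from the nearest coding gene, was at 23.9% to 36.0% without drug, at 0% after RTX and at 0% to 25.2% after 5FdUR (adjusted p = 0.00447, exact permutation test).

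Of 54 miRNA host genes 53 were tested, 12 were higher and 13 lower, or 22.6% and 24.5%, where 21.2% and 9.72% of all genes were called. MIR17HG (chr13:91347686-91397592), which holds the miR-17-92 cluster, was covered by 6.01% at the lowest, 23.7% at the median and 29.1% at the highest in non-treated libraries, by 0% to 6.21% after 5FdUR and by 0% after RTX (adjusted p = 0.00447, exact permutation test). MIR99AHG (chr21:15928296-16646364, 718.1 kb), host of miR-99a and let-7c, fell from 33.7% ± 3.06 (SD, n = 6) to 1.67% ± 3.09 (SD, n = 8) with the same adjusted p. MIR155HG, host of a miRNA of immune cells, was at 0% in both NT_UGI libraries, at 10.5% to 24.0% in the other 4 non-treated libraries and at 0% after drugs (adjusted p = 0.0489, exact permutation test). MIR34AHG (chr1:9148011-9198906), host of the p53-induced miR-34a, was at 0% without drug and at 1.77% to 88.2% after drugs (adjusted p = 0.0132, exact permutation test).

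Of 5 lncRNAs linked to p53 or DNA damage, PURPL alone was called, as lower, where 9.72% of all genes tested were lower. PURPL (chr5:27217714-27497871, 34.2% GC) was at 45.7% to 56.4% in non-treated libraries, at 0% after RTX and at 0% to 4.21% after 5FdUR (adjusted p = 0.00447, exact permutation test). NORAD, which binds Pumilio proteins, was at 81.2% to 100% in RTX libraries, at 100%, 0%, 0% and 0% after 5FdUR and at 27.8% and 22.2% in the WT libraries, with 0% in the other non-treated libraries (adjusted p = 0.119, exact permutation test). PANDAR, 1.33 kb from CDKN1A, the gene of the p53-induced cell cycle inhibitor p21, was at 100% in all 4 RTX libraries and in 5FdUR_UGI replicate 1 and at 0% in the other 9 HCT116 libraries (adjusted p = 0.078, exact permutation test). PICART1 was at 0% without drug, at 100% in 5FdUR_UGI replicate 1 and RTX_UGI replicate 2, at 78.8% in RTX_UGI replicate 1 and at 0% in the other drug-treated libraries. NEAT1 and NORAD were on this list as well as on the first.

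Of 9 lncRNAs studied in colorectal cancer, PVT1 and LINC00511 were higher and CRNDE, HULC and LINC01194 lower. Over all genes tested, 21.2% were higher and 9.72% lower. PVT1 (chr8:127794526-128187101, 51.6 kb from MYC) was at 0% to 1.48% without drug and at 1.12% to 22.7% after drugs (adjusted p = 0.0265, exact permutation test). LINC00511 was at most at 0.0285% without drug and at 1.06% to 38.2% after drugs (adjusted p = 0.0191, exact permutation test). CRNDE (chr16:54845189-54929189) was at 7.26% to 11.2% without drug, at 0% after RTX and at 0%, 10.9%, 0.833% and 13.9% after 5FdUR (adjusted p = 0.0191, exact permutation test). HULC, annotated with a body of 858.6 kb, was at 16.0% to 19.6% without drug, at most 3.26% after RTX and 1.85% to 32.7% after 5FdUR (adjusted p = 0.0218, exact permutation test). In CRNDE and HULC the 5FdUR_UGI_MMR replicate 2 library was above every non-treated library, so the groups overlapped. LINC01194, 670.4 kb from the nearest coding gene, was at 41.9% to 52.5% without drug and at 0% to 4.23% after drugs (adjusted p = 0.00447, exact permutation test). LINC00460 and UCA1 of the same list, named after their values were seen, were higher in every 5FdUR than in every RTX library.

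The HOX list held HAGLROS alone, which lies 4.61 kb from HOXD3 and was filled in 3 of 4 5FdUR libraries and at 0% in all others (adjusted p = 0.301, exact permutation test). Of 4 lncRNAs of neural tissue, RMST was lower, from 12.4% to 21.5% without drug to 0% in 7 of 8 drug-treated libraries and 2.57% in 5FdUR_UGI_MMR replicate 2 (adjusted p = 0.00447, exact permutation test). Of all genes tested, 9.72% were lower. LINC00461 was at 12.2% to 22.3% without drug, 6.03% to 59.2% after 5FdUR and 0% to 9.92% after RTX (adjusted p = 0.455, exact permutation test). PANTR1, 103 bp from POU3F3, was at 0% to 6.12% without drug, 0% to 19.1% after 5FdUR and 0% after RTX (adjusted p = 0.554, exact permutation test).

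The drugs themselves differed. As the assay also detects fluorouracil, which 5FdUR brings into DNA, a difference between the drugs cannot be assigned to uracil alone. The mean log2 fold of the member bodies was 0.89 higher in the 4 5FdUR than in the 4 RTX libraries (exact permutation test, p = 0.0286, the smallest possible with 4 against 4). Against coding gene bodies, members were at 1.05 ± 0.270 (SD, n = 4) after 5FdUR and at 0.402 ± 0.0170 after RTX (log2 difference 1.35, adjusted p = 0.0461, exact permutation test). In 1090 members (11.9% of those tested) every 5FdUR library was above every RTX library, and in 362 (3.94%) every one was below, whereas over all 52761 genes the shares were 7.4% and 12.8%. No p was adjusted for these counts, since 4 against 4 libraries cannot pass a correction over all genes. Without 5FdUR_UGI replicate 1 the counts were 2441 and 940, and without both 5FdUR_UGI_MMR libraries 1851 were above. With the common log2 value of 0.34 the balance turned, with 69 members above and 326 below. With fewer libraries it is easier for groups not to overlap, in any set of genes. The counts under these settings were not set against shares over all genes, so they describe the members alone.

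The members with the largest 5FdUR excess were LINC01942, FENDRR, LINC02188, LINC01484 and LINC02730, in which the mean share was 94.0% to 100% after 5FdUR and 0% to 1.42% after RTX. FENDRR (chr16:86474529-86509099, 1.43 kb from FOXF1), a transcript of lateral mesoderm opposite to that transcription factor gene, was at 90.2%, 100%, 100% and 96.3% after 5FdUR and at 0% in all 4 RTX and all 6 non-treated libraries. LINC01942 (chr5:173689459-173705849) was at 100% in all 4 5FdUR libraries and at 0% in all others, and its neighbour LINC01484 was at 90.4% to 100% after 5FdUR. The members with the largest RTX excess were LINC02454, BMS1P4, MIR7-3HG, LINC01993 and UBE2Q2P1. LINC02454 (chr12:65589111-65614169) was at 100%, 100%, 86.8% and 84.04% after RTX and at 0% in all other libraries, and MIR7-3HG (chr19:4769031-4785077) at 98.9%, 100%, 51.1% and 98.3% after RTX and at most 1.68% otherwise. BMS1P4 and UBE2Q2P1 carry pseudogene symbols, so reads may be shared with near-identical copies and their shares are uncertain. These 10 were chosen for this difference, which is given as a description.

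Within 5FdUR the libraries differed by mismatch repair state. The fold of the member bodies was 0.739 and 0.886 after 5FdUR in MMR deficient and 1.05 and 1.19 in MMR proficient cells, against 0.503 and 0.511, and 0.542 and 0.496, after RTX. The drug effect in MMR proficient minus MMR deficient cells was 0.26 in log2 and did not pass the test (exact permutation test, p = 0.0833). This difference was smallest, at 0.103 and 0.0455, without 5FdUR_UGI_MMR replicate 1 or 2, and was 0.143 and 0.150 without RTX_UGI replicate 1 or 2. It passed without NT_UGI replicate 2 (p = 0.0463) and without RTX_UGI_MMR replicate 2 (p = 0.0185), and averaged over genes instead of bases it was -0.23 (p = 0.00926, exact permutation tests). The 5FdUR_UGI_MMR libraries also had the most regions, 169116 and 214729 against 80944 to 142575 in the other drug-treated libraries, and replicate 2 had the lowest log2 threshold, 0.13. Whether these features of the libraries contribute to the difference was not tested.

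Across libraries, the covered shares of the 9932 members correlated with Pearson's r of 0.693 to 0.766 between non-treated libraries of different conditions and of 0.703 to 0.750 between these and K562. Coefficients of drug-treated with non-treated libraries ran from -0.264 to -0.117, and between drug-treated libraries of different conditions -0.179 to 0.763. These coefficients run over genes that share loci, regions and base composition, and describe the libraries only. Replicates of 1 drug condition correlated at 0.532 to 0.841. By chromosome, the fold of the members was highest without drug on chromosome 4 (2.06) and lowest on chromosome 22 (0.190), and after drugs it was highest on chromosome 17 (1.49) and lowest on chromosome 21 (0.290).

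The strength of enrichment inside covered member sequence was close to that of all covered sequence. The mean log2 of enriched over input coverage was 0.370 to 0.462 in members and 0.367 to 0.459 over the genome in non-treated libraries. In drug-treated libraries it was 0.226 to 0.461 in members and 0.224 to 0.461 over the genome. The lowest log2 value of a region, the threshold of the library, lay between 0.13 and 0.33. In non-treated libraries 70.9% to 73.5% of the members had no covered base and 0.665% to 0.896% were covered whole, while in drug-treated libraries 40.4% to 65.8% had none and 7.58% to 20.2% were covered whole.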

How the data were processed

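U-DNA-Seq libraries of HCT116 and K562 cells were deposited as lists of uracil-enriched regions, 15 replicate files and 7 merged files, on GRCh38. Per the submitters' processing notes and the methods, the authors aligned reads with BWA 0.7.17-r1194, processed them with SAMtools 1.9-50 and Picard, discarded reads of ambiguous position and segments on a blacklist, and computed the deposited log2 of enriched over input coverage with deepTools 3.2.1 in 100-bp bins smoothed over 5000 bp, then kept regions above a threshold set for each library. The files hold no read counts, so the depth is unknown and no counting interval is given.

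Covered shares of GENCODE release 44 genes were computed with Python 3.11.15 and NumPy 2.4.6 and divided by the autosomal share of the library. Groups were compared by exact permutation tests, two-sided, over libraries, with Benjamini-Hochberg adjustment over 52761 genes, over 37 sets, 21 classes or 28 ratios. The scripts were tested on simulated data. Replicates were independent biological replicates per the methods, 2 a condition.

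The members and the gene lists were chosen with earlier results of these data known. Named genes were list members (at most 4 a list with values), the 8 called genes of at least 10 kb with the largest gain and loss, the 5 longest, and the 5 of at least 10 kb furthest apart between the drugs in each direction, without Ensembl identifiers outside the longest. Of the members, 1901 symbols matched a RefSeq promoter. Alternatives were a minimum region length of 5 kb, a common log2 value of 0.34, bodies of at least 5 kb, merged files, gene means, exons, shares at the same GC content, shares without division by the genome, non-overlapping groups, a replicate block, chromosome 3 left out and each library left out.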

Additional observations from a re-analysis of the deposited data

Results flagged for a closer look

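A library far from the others of its group was looked for in 132 groups of values and found in 23. The limit used flags about 5% of groups by chance when values are normally distributed. A group with a share of 0 in all libraries but 1, as in H19, is always flagged. The 23 can therefore not be set against 5%. In the ratio of members to other intergenic sequence, RTX_UGI_MMR replicate 1 stood above the other RTX libraries at 0.662. Of the covered shares in drug-treated libraries, 5FdUR_UGI_MMR replicate 2 was the lowest for LINC02037 (49.6%), LINC02757 (36.7%), LINC03015 (50.8%) and MIR9-3HG (52.1%). The same library was the highest for LINC01320 (6.99%), LINC02055 (2.77%), LINC02494 (20.3%), LINC02619 (0.409%), MIR99AHG (8.73%) and RMST (2.57%). It has the lowest log2 threshold and the most regions of all libraries, and their part in these values was not tested. LINC01608 was highest in 5FdUR_UGI_MMR replicate 1 (5.06%), H19 in 5FdUR_UGI replicate 2 (17.4%) and SNHG1 in RTX_UGI replicate 2 (100%).

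Among non-treated libraries, WT replicate 2 was the highest for BMS1P4 (4.47%), CYTOR (0.934%), LINC00511 (0.0285%) and LINC00928 (2.61%) and the lowest for LINC02263 (66.0%). NT_UGI replicate 2 was the highest for PANTR1 (6.12%) and UBE2Q2P1 (1.82%) and the lowest for RMST (12.4%) and SNHG27 (23.9%).

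After 5FdUR, the members were covered less than other intergenic sequence in both MMR deficient libraries and more in both MMR proficient libraries. The log2 ratios differed by 0.53, and this difference was not tested.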

How the results depend on the processing

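Leaving out 1 library at a time gave a log2 difference between drug-treated and non-treated libraries of -1.02 to -0.84 for the fold of the members, 1.82 to 2.06 for divergent transcripts against LINC genes and 6.77 to 7.93 for near against far genes. Against other intergenic sequence the log2 ratio was -0.52 to -0.40 in drug-treated libraries (exact sign-flip p of 0.0625 without any 1 of the 5FdUR_UGI or RTX libraries), 0.19 in non-treated libraries (lowest 0.190, highest 0.194, always p = 0.0625, the smallest possible with 5) and differed by -0.71 to -0.59. The fold after 5FdUR exceeded that after RTX by 0.78 to 1.01, and the MMR difference ran from 0.0455 to 0.46. Counts ran from 1109 to 1842 higher and 1367 to 1572 lower members, and from 1137 to 2441 above and 370 to 940 below in 5FdUR against RTX. None of these counts was set against the share over all genes with the same library left out.

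With regions of at least 5 kb the counts were 532 higher, 774 lower and 641 above in 5FdUR. With a common log2 value of 0.34 there were 124 higher and 1469 lower members and 69 above and 326 below in 5FdUR, and with bodies of at least 5 kb 1154 higher and 240 below in 5FdUR. With groups that do not overlap 755 were higher. Averaged over genes, the drug difference reversed to 1.20, the ratios to other intergenic sequence to 0.55 with drug and -0.94 without, their difference to 1.48 and the MMR difference to -0.23. Over exons the same values reversed to 1.06, 0.45, -0.88, 1.34 and -0.14. At the same GC content the drug difference was -0.38 (exact permutation test, p = 0.104). The merged files, with 1 value a condition, gave -0.95, -0.46, 0.19 and -0.66 for these first 4 values, 2.04 for divergent transcripts, 8.98 for near against far and 0.92 between the drugs, none past the threshold (exact tests, p from 0.0571 to 0.333). The drug against non-treated comparisons could have reached 0.0286 in this design, and the ratios to other intergenic sequence within each group and the difference between drugs could not have reached 0.05. Without both 5FdUR_UGI_MMR libraries, chosen after seeing the data, the drugs differed by 0.66 (exact permutation test, p = 0.0667) and 1851 members were above in 5FdUR. The cause of these changes was not tested. Apart from the groups that do not overlap, counts under these alternatives were not set against shares over all genes. The members' log2 folds were also taken as deviations from their condition means. Between same-numbered libraries of different conditions these correlated at -0.0495 to 0.0774 in 42 pairs, none over 0.1. With 2 replicates a condition their deviations mirror each other, so each coefficient occurs again for the other replicate number. No pairing by replicate number was seen, but low coefficients cannot exclude it. With the replicate number as a block the log2 ratio to other intergenic sequence was -0.44 and 0.19 (p = 0.5 for both) and the difference between drugs 0.89 (p = 0.0556), these 3 exact tests being unable to go below 0.05 with the block. None of the 35 called genes among 58 named changed direction under an alternative, 65 of 1208 outcomes of named genes lost a call and 15 gained one, and H19 and MIR155HG had no covered base under 3 and 1 of the alternatives. Sequence that reads do not map to uniquely, and blacklisted segments, were not measured.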
